A study of Mus musculus with 15 samples.

Results

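The Notch receptors, their ligands and their first target genes were followed across primary mouse kidney cells of both sexes, with and without the gene Diet1. The group held 10 genes, taken by symbol from the 24421 gene symbols of the count table: the receptors Notch1, Notch2, Notch3 and Notch4, the ligands Jag1, Jag2, Dll1 and Dll4, and the target genes Hes1 and Hey1. All 10 had enough counts to be tested, as had 13912 genes in all. The cells were labelled primary proximal tubule cells, the epithelium that reabsorbs most of what the glomerulus filters, and came from C57BL/6 mice. They had gone through 1 passage in culture. Male cells were wild type (WT, n = 4 libraries) or Diet1 knockout (KO, n = 3), and female cells likewise (WT n = 4, KO n = 4). The ages of the mice and the design of the deletion are not given in the sources used here. For each group, cells of 3 to 4 mice were mixed and the mixture was split into technical replicates. Each group was therefore 1 pool of cells. The p-values measure the spread between libraries of a pool, and an effect of genotype or sex cannot be told apart from other differences between pools.

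Notch receptors are membrane proteins that bind Delta and Jagged ligands on a neighbouring cell. Binding exposes the receptor to proteases, which free its intracellular domain to enter the nucleus and, with the DNA-binding protein RBPJ, to turn on genes of the Hes and Hey families, which are transcriptional repressors. In the kidney the pathway is known for forming the proximal nephron, chiefly through Notch2, and for its reactivation in injured tubules. Notch4 and Dll4 are best known from blood vessel endothelium, and Notch3 from smooth muscle cells and pericytes.

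Library totals were 17648416 to 30896637 counts, at which 3 counts correspond to 0.0971 to 0.170 CPM (counts relative to the total of the library). Libraries of the same group correlated at 0.994 to 0.996 in log2 CPM. Malrd1, the current symbol of Diet1, was not analysed here. Of 12 proximal tubule markers, 9 were measured well enough to be tested. Pax8 and Cdh16, genes of kidney epithelium, had group means between 116 and 292 CPM. Slc34a1, Slc5a2 and Slc5a12, the phosphate, glucose and lactate transporters that define the mature proximal tubule, reached at most 13 counts in any library, and Slc34a1 had no counts in either KO group. Markers of fibroblasts, with summed levels of 1792 to 3847 CPM per library, and of smooth muscle and pericytes, with 2991.5 to 4399 CPM, were also present. Col1a1 (group means of 964 to 1947 CPM) and Col1a2 (798 to 1541 CPM) made up most of the fibroblast sum. Acta2 (1298 to 1816 CPM) and Tagln (1144 to 1532.5 CPM) made up most of the other. Some members were scarce, such as Dcn at 0.343 to 0.588 CPM, Lum at 0.0154 to 0.0475 CPM and Rgs5 at 1.09 to 3.17 CPM. In such bulk samples, fewer cells of a type and less RNA per cell cannot be told apart.

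Of the 10 genes, Notch3 and Dll4 were lower in KO than in WT in both sexes. The sequences just upstream of their transcription starts are shown because these 2 members alone passed the test, described below, as lower in both sexes. They are from RefSeq on GRCm38.p6, each is the 250 bases before the annotated start, written 5′ to 3′ on the gene's strand, and 8 of the 10 genes had an entry (all but Hes1 and Hey1). Capitals mark matches on either strand to CACNAG, the N box bound by Hes proteins. The Notch3 window is chr17:32166891-32167140 on the minus strand and the Dll4 window chr2:119325534-119325783 on the plus strand.
Notch3: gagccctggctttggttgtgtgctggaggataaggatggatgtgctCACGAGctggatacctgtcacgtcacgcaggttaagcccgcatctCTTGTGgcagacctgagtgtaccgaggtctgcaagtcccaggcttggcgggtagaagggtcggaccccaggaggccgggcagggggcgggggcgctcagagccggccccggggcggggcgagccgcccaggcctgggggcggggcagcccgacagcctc
Dll4: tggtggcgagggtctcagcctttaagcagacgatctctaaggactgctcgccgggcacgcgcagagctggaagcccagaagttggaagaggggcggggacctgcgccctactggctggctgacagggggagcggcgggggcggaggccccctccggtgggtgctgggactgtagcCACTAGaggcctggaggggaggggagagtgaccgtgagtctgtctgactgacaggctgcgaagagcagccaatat
The Notch3 window held 2 N box matches, starting 204 and 159 bases before the gene start, and a GC content of 68.8% with 17 CpG dinucleotides. The Dll4 window held 1 match, 75 bases before the start, and a GC content of 65.6% with 14 CpG dinucleotides. The windows of Notch1 and Notch2 held 1 match each, 108 and 247 bases before the start, and those of Notch4, Jag1, Jag2 and Dll1 held none. Such matches were common, since 36.7% of 32851 mouse promoter windows of the same length held at least 1. The RBPJ site GTGGGAA (in 5.42% of those windows), its core TGGGAA, which the full site contains (21.6%), and the E box CACGTG (6.02%) had no match on either strand in the windows of the 8 genes. That says only that these letters are not in these windows.

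Per kilobase of exon, Jag1 was by far the most abundant transcript of the group. Levels are given here as RPKM, CPM divided by the length of the gene's merged exons in kilobases (GENCODE M21, GRCm38). This sets genes of unlike length side by side, but the annotation of the authors' counting is not given and may differ. Jag1 had a mean of 196 RPKM over the 15 libraries and a range of 168 to 214 RPKM. The next were the target Hes1 at 28.7 RPKM, the receptor Notch2 at 24.7 RPKM and the ligand Dll1 at 17.5 RPKM. Notch3, Dll4 and Notch1 followed with means of 6.31, 4.58 and 4.02 RPKM. The 3 scarcest members were Notch4 at 0.709 RPKM, Hey1 at 0.640 RPKM and Jag2 at 0.429 RPKM. The order depends in part on the exon lengths used. By CPM, Jag1 was also first, but Hes1 ranked 4, behind Notch2 and Dll1, and Notch1 ranked 5, ahead of Notch3 and Dll4.

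**Figure D1:**
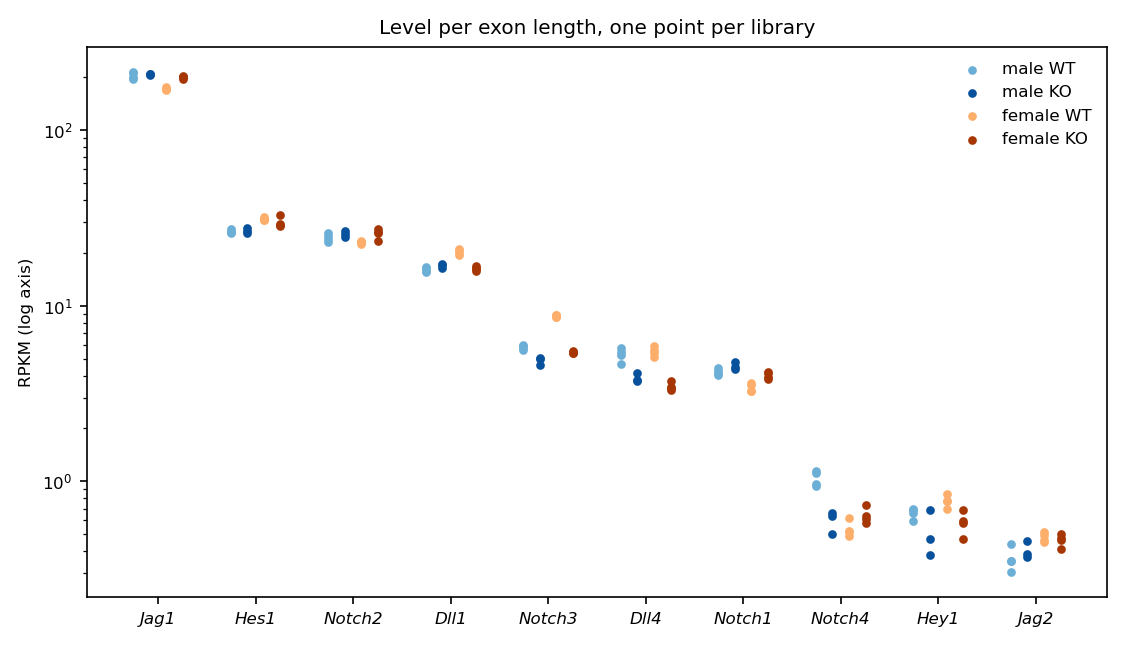
Level of each of the 10 genes in RPKM on a log axis, with 1 point per library and the groups side by side, genes ordered by their mean over all 15 libraries. Jag1 lies at 168 to 214 RPKM in all libraries, and Notch4, Hey1 and Jag2 lie near or below 1 RPKM.

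Notch2 made up most of the receptor transcripts and Jag1 most of the ligand transcripts in each group. Of the summed RPKM of the 4 receptors, Notch2 held 68.9 ± 0.691% in male WT (SD, n = 4), 71.8 ± 0.199% in male KO (n = 3), 64.4 ± 0.288% in female WT (n = 4) and 71.8 ± 1.11% in female KO (n = 4). Notch3 held 16.3 ± 0.461%, 13.7 ± 0.246%, 24.5 ± 0.354% and 15.2 ± 0.685% in the same order of groups. Female WT thus had the largest Notch3 share and the smallest Notch2 share of the 4 groups. Among the 4 ligands, Jag1 held 90.4 ± 0.667% in male WT, 90.7 ± 0.151% in male KO, 86.7 ± 0.564% in female WT and 90.8 ± 0.287% in female KO. Dll1 held 10.3 ± 0.388% of the ligand sum in female WT and between 7.08% and 7.40% in the other groups.

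**Figure D2:**
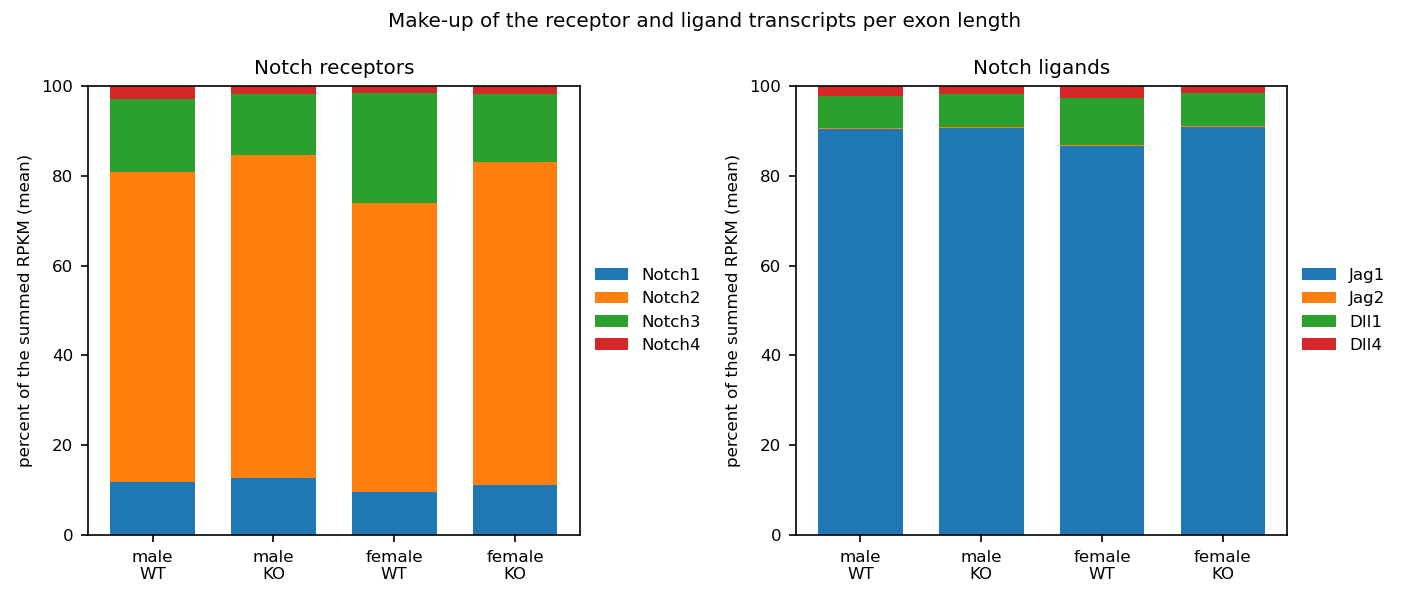
Stacked bars of the mean percent of the summed RPKM held by each receptor (left) and each ligand (right) in the 4 groups, from 0 to 100%. Notch3 takes 24.5% of the receptor sum in female WT against 13.7% to 16.3% elsewhere.

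The main question for each gene was whether KO differed from WT within a sex. Differences were tested with edgeR's quasi-likelihood test on the counts of all genes, and genes with a Benjamini-Hochberg adjusted p under 0.05 count as called. CPM values below are scaled by edgeR's TMM factors, with SDs over libraries, and log2 fold changes carry standard errors. In male KO cells 3 of the 10 genes were lower (Notch3, Notch4 and Dll4), where 10.1% of all genes tested were called lower. None was called higher by edgeR, DESeq2 or limma-voom, where edgeR called 10.1% of all genes higher, and 1 of the 10 (Notch1) was higher at an unadjusted p below 0.05. In female KO cells 3 genes were higher (Notch1, Notch2 and Jag1), against 20.7% of all genes, and 3 were lower (Notch3, Dll1 and Dll4), against 18.6% of all genes. Among called genes in females, 52.7% were higher, or 39.9% when libraries were scaled by their totals alone. The median log2 fold change of the 10 genes was 0.01 in males and -0.06 in females, beside 0.00 over all genes in each sex. Jag2, Hes1 and Hey1 were called in neither sex.

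**Figure D3:**
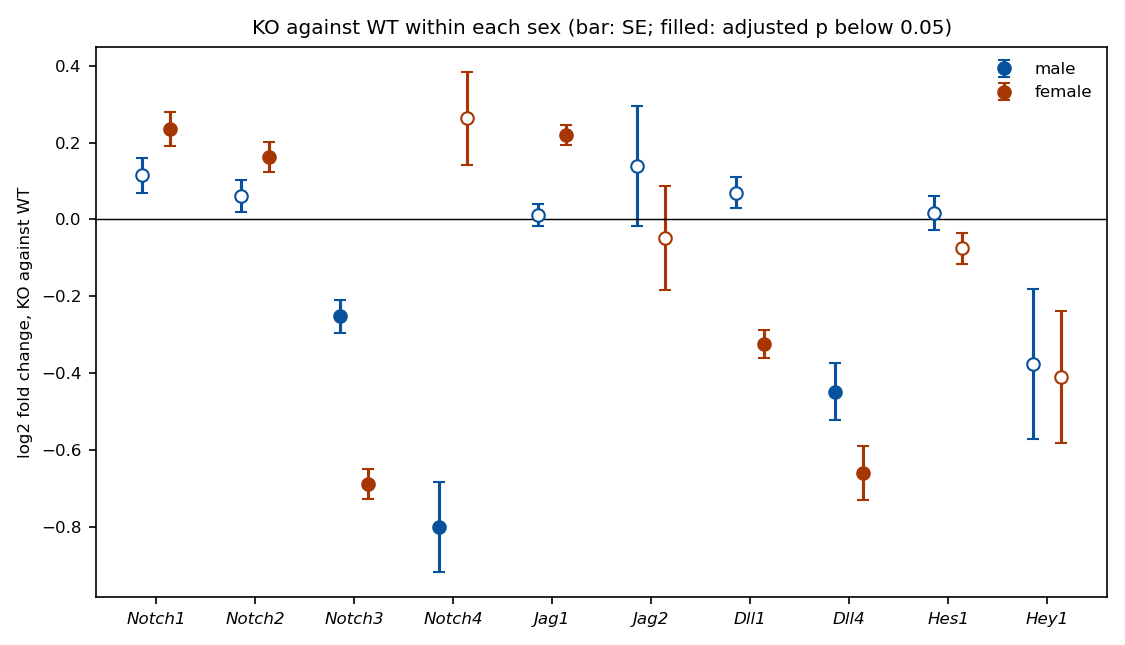
Log2 fold change of KO against WT for each of the 10 genes in males (blue) and females (red), with bars of 1 standard error and filled points where the edgeR adjusted p is below 0.05. Notch3 and Dll4 are below 0 and called in both sexes, and Notch4 lies on opposite sides of 0.

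Notch3, a receptor on GRCm38 chromosome 17 (32120820 to 32166852, minus strand), fell in KO cells of both sexes. It stood at 46.6, 45.3, 47.8 and 48.2 CPM in the male WT libraries and at 40.2, 37.3 and 40.8 CPM in male KO. In females it stood at 71.8, 70.1, 69.7 and 72.0 CPM in WT and at 43.7, 43.3, 43.9 and 45.0 CPM in KO. All WT libraries were above all KO libraries of the same sex, and the 4 groups did not overlap at all, in the order female WT, male WT, female KO and male KO. The change was 1.19-fold in males (log2 fold change -0.25 ± 0.043, edgeR adjusted p = 3.90e-05) and 1.61-fold in females (-0.69 ± 0.038, edgeR adjusted p = 2.83e-16). The decrease was larger in females by 0.44 ± 0.058 on the log2 scale, with an edgeR adjusted p of 8.42e-07 for the difference itself. In that test of the sex difference, 9.76% of all genes were called with a more positive change in females and 5.89% with a more negative one. Among called genes 62.4% were in the positive direction, or 46.3% with scaling by library totals alone.

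Markers of smooth muscle and pericytes, the cells Notch3 is best known from, were lower for 8 of 9 tested in male KO, and in female KO 3 were lower and 2 higher. Their summed level was 3550 to 3923 CPM in male WT, 2991.5 to 3069 CPM in male KO, 3847 to 3893 CPM in female WT and 3808 to 4399 CPM in female KO, with none of the markers at 0. Fibroblast markers were lower for 7 of 9 tested in male KO, where their sum moved from between 3435 and 3672 CPM to between 1792 and 1979 CPM. In females 6 of the 9 were lower and 2 higher, with sums of 3571 to 3847 CPM in WT and 2551 to 2780.4 CPM in KO. Of 9 tested proximal tubule markers, 1 was higher and 2 lower in male KO, and 1 was higher and 4 lower in female KO. Summed, they were at 631 to 695 CPM in male WT and 651 to 675 CPM in male KO. In females the sums were 645 to 666 CPM in WT and 571 to 606 CPM in KO. The part of any of these cells in the Notch3 result was not tested.

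Notch4 (chromosome 17, 34564268 to 34588503, plus strand) fell in male KO cells, and its change differed between the sexes. Its levels were 7.74, 7.55, 9.25 and 8.97 CPM in male WT and 5.33, 5.10 and 4.02 CPM in male KO. Female WT libraries had 4.97, 4.20, 3.96 and 4.13 CPM and female KO libraries 4.68, 4.89, 5.91 and 5.09 CPM. Male WT stood above every other library, and the remaining 3 groups overlapped. The male decrease was 1.74-fold (log2 fold change -0.80 ± 0.12, edgeR adjusted p = 3.43e-06), while the female value was 0.26 ± 0.12 (edgeR adjusted p = 0.0830, or 0.33 with an adjusted p of 0.0432 without female WT library 1). The female change exceeded the male change by 1.06 ± 0.17 on the log2 scale (edgeR adjusted p = 1.64e-05). These levels rested on 79 to 239 counts per library.

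The endothelial markers moved with Notch4, a receptor best known from endothelium, in that male WT again stood above the other groups. In male KO 9 of 10 were called lower (median change -0.92 on the log2 scale), and in female KO 2 of 10 were called higher (median 0.14). Their summed level was 85.0 to 91.5 CPM in male WT, 40.2 to 45.0 CPM in male KO, 34.9 to 41.8 CPM in female WT and 39.0 to 50.6 CPM in female KO, with none of the 10 at 0. Their part in the Notch4 result was not tested.

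Notch1 and Notch2, the receptors with the smaller changes, were higher in female KO cells. Notch1 (chromosome 2, 26457903 to 26516663, minus strand) was at 50.5, 51.6, 46.5 and 46.5 CPM in female WT and at 55.7, 54.3, 58.9 and 59.9 CPM in female KO, without overlap. Its female log2 fold change was 0.23 ± 0.045 (edgeR adjusted p = 6.39e-05). In males it was at 58.9, 57.5, 60.7 and 62.6 CPM in WT and at 62.1, 63.9 and 68.5 CPM in KO, groups that overlapped (0.11 ± 0.046, edgeR adjusted p = 0.0786). The changes in the sexes differed by 0.12 ± 0.064, which was not called (edgeR adjusted p = 0.231).

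Notch2 (chromosome 3, 98013527 to 98150361, plus strand), the main receptor of these cells by level, was at 249.7, 251, 243 and 249.7 CPM in female WT and at 253, 283, 281 and 294 CPM in female KO. The groups did not overlap, although 1 female KO library lay within 2 CPM of the highest WT library. The log2 fold change was 0.16 ± 0.039 (edgeR adjusted p = 0.00167). Male WT libraries had 248, 260.2, 269.5 and 279 CPM and male KO libraries 276, 265 and 286 CPM, and these overlapped (0.06 ± 0.042, edgeR adjusted p = 0.346). The difference between the sexes was 0.10 ± 0.057 (edgeR adjusted p = 0.270), or 0.14 with an adjusted p of 0.0431 without female KO library 1, the lowest of its group.

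**Figure D4:**
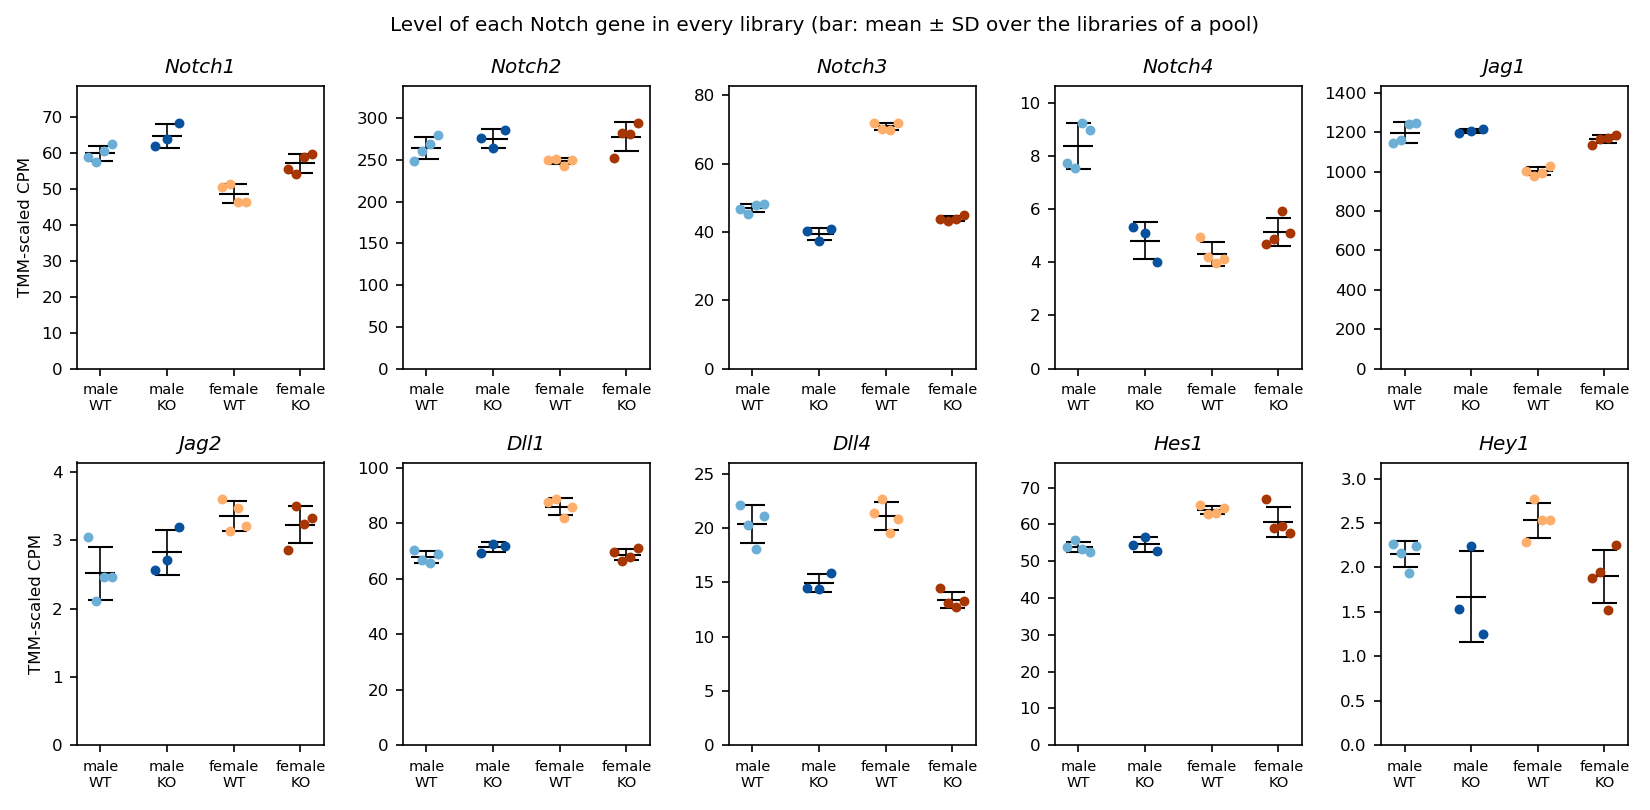
TMM-scaled CPM of each of the 10 genes in every library, in 1 panel per gene with an axis from 0, with bars for the mean and SD of the 4 groups. Notch3 falls from 70.9 to 44.0 CPM on average in females, and Notch4 from 8.38 to 4.82 CPM in males.

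Of the ligands, Dll4 was lower in KO cells of both sexes and Dll1 in those of females, whereas Jag1 was higher in female KO. Dll4, the Delta ligand of growing vessels (chromosome 2, 119325784 to 119335962, plus strand), was at 22.1, 20.3, 18.1 and 21.1 CPM in male WT and at 14.5, 14.4 and 15.9 CPM in male KO. It was at 21.4, 22.7, 19.6 and 20.8 CPM in female WT and at 14.4, 13.1, 12.7 and 13.3 CPM in female KO. Every WT library was above every KO library across both sexes. The decrease was 1.37-fold in males (log2 fold change -0.45 ± 0.074, edgeR adjusted p = 2.26e-05) and 1.58-fold in females (-0.66 ± 0.070, edgeR adjusted p = 1.88e-09). The 2 decreases differed by -0.21 ± 0.10, which was not called (edgeR adjusted p = 0.180). The endothelial marker sum given above was 34.9 to 41.8 CPM in female WT and 39.0 to 50.6 CPM in female KO, so it did not fall with Dll4 in females, whereas it fell in males. The fibroblast marker sums given above, mostly Col1a1 and Col1a2, were lower in KO in both sexes, as Dll4 was. Of the 9 fibroblast markers tested, 2 were higher in female KO. The part of endothelial cells and fibroblasts in the Dll4 result was not tested. The antisense gene Gm14207 overlaps 214 bases of Dll4 exons (5.56%) and reached at most 35 counts in a library. Its log2 fold changes were -0.72 in males (edgeR adjusted p = 0.149) and -0.89 in females (edgeR adjusted p = 0.0321). The part of Gm14207 reads in the Dll4 result was not tested.

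Dll1 (chromosome 17, 15367354 to 15376872, minus strand), a Delta ligand expressed in epithelia as well as vessels, was at 87.9, 88.7, 82.0 and 85.8 CPM in female WT and at 69.5, 66.3, 68.0 and 71.0 CPM in female KO. The groups were clearly separated, at a 1.25-fold difference (log2 fold change -0.32 ± 0.036, edgeR adjusted p = 5.30e-09). In males the levels were 70.4, 66.6, 65.6 and 69.0 CPM in WT and 69.3, 72.7 and 72.0 CPM in KO, which overlapped (0.07 ± 0.039, edgeR adjusted p = 0.233). The female change was lower than the male one by 0.39 ± 0.054 on the log2 scale (difference of -0.39 ± 0.054, edgeR adjusted p = 1.18e-06). Female WT stood above the other 3 groups, which lay between 65.6 and 72.7 CPM. Markers of the distal nephron and collecting duct were also highest in female WT, with sums of 55.1 to 64.6 CPM against 30.4 to 33.0 CPM in female KO, 43.9 to 51.5 CPM in male WT and 38.7 to 44.0 CPM in male KO. Of 7 tested, 5 were lower in female KO and 1 in male KO, and Aqp2 and Atp6v1g3 had no counts in some groups. The part of these cells in the results for Dll1, Notch3 and Dll4 was not tested. Exons of the gene A930024N18Rik on the other strand cover 867 bases (20.5%) of Dll1 exons, and since the strand setting of the counting is not given in the sources used here, their reads cannot be told apart from those of Dll1. Other genes on the opposite strand cover 7.5% and 2.91% of Notch1 exons and 6.03% of Notch3 exons, and Gm42820 on the same strand covers 5.02% of Notch2 exons.

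Jag1 (chromosome 2, 137081456 to 137116644, minus strand), the Jagged ligand that leads the group by level, was at 1001.8, 981, 995 and 1029.8 CPM in female WT and at 1138, 1168, 1173 and 1189.6 CPM in female KO. The female KO libraries were all higher, by 1.16-fold (log2 fold change 0.22 ± 0.026, edgeR adjusted p = 2.09e-08). Male WT, at 1145, 1164, 1241 and 1249 CPM, and male KO, at 1198, 1209 and 1219 CPM, overlapped (0.01 ± 0.028, edgeR adjusted p = 0.836). The change was greater in females by 0.21 ± 0.039 (edgeR adjusted p = 1.37e-04). Jag2 (chromosome 12, 112907819 to 112929776, minus strand), the second Jagged ligand, had group means of 2.52 ± 0.387 CPM in male WT, 2.82 ± 0.328 CPM in male KO, 3.35 ± 0.215 CPM in female WT and 3.23 ± 0.272 CPM in female KO. All neighbouring groups overlapped, at 38 to 94 counts per library. Its log2 fold changes were 0.14 ± 0.16 in males (edgeR adjusted p = 0.598) and -0.05 ± 0.14 in females (edgeR adjusted p = 0.806).

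Neither target gene passed the test for KO against WT. Hes1 (chromosome 16, 30064384 to 30067796, plus strand), the repressor most often read as a sign of Notch activity, was at 53.8, 55.8, 53.5 and 52.6 CPM in male WT and at 54.5, 56.5 and 52.7 CPM in male KO. Female WT libraries had 65.2, 62.9, 63.1 and 64.5 CPM and female KO libraries 66.8, 59.0, 59.6 and 57.8 CPM. In each sex WT and KO overlapped, and in females 1 KO library was above all WT libraries while the other 3 were below them. The log2 fold changes were 0.02 ± 0.045 in males (edgeR adjusted p = 0.847) and -0.08 ± 0.041 in females (edgeR adjusted p = 0.146). Without female KO library 1, the highest of its group, the female value was -0.13 and was called (edgeR adjusted p = 0.0108). Hey1 (chromosome 3, 8663359 to 8667256, minus strand), which acts in vessels and heart, was at 27 to 70 counts per library. Its levels were 2.27, 2.17, 1.94 and 2.24 CPM in male WT and 1.53, 2.24 and 1.25 CPM in male KO. They were 2.28, 2.77, 2.54 and 2.54 CPM in female WT and 1.88, 1.95, 1.52 and 2.25 CPM in female KO. The female groups did not overlap but the change was not called (-0.41 ± 0.17 on the log2 scale, edgeR adjusted p = 0.0567). The male value was -0.38 ± 0.19 (edgeR adjusted p = 0.185). Hey1 was called lower in females without male KO library 2 (adjusted p = 0.0431) or female KO library 4 (-0.51, adjusted p = 0.0320). In females it was also called in a fit of the female groups alone (-0.42, edgeR adjusted p = 0.0477) and with a replicate block (-0.41, edgeR adjusted p = 0.0493). Scaling by library totals alone gave a female call as well (-0.45, edgeR adjusted p = 0.0358). In males Hey1 was called lower without male KO library 2 (-0.63, adjusted p = 0.0453).

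The WT cells of the sexes differed in 7 of the 10 genes. In female WT against male WT, 4 genes were higher, where 12.6% of all genes were called higher, and 3 were lower, where 16.0% of all genes were called lower. Of called genes 44.1% were higher in females, or 55.2% with scaling by library totals alone. Notch3 had the largest difference among those that were higher, at 1.51-fold (log2 difference 0.59 ± 0.038, edgeR adjusted p = 1.57e-14), followed by Jag2 at 0.38 ± 0.14 (edgeR adjusted p = 0.0356), Dll1 at 0.34 ± 0.036 (edgeR adjusted p = 2.70e-09) and Hes1 at 0.25 ± 0.041 (edgeR adjusted p = 1.44e-05). Notch4 was 1.94-fold lower in female WT (log2 difference -0.96 ± 0.11, edgeR adjusted p = 1.52e-08), Notch1 was at -0.30 ± 0.044 (edgeR adjusted p = 1.78e-06) and Jag1 at -0.26 ± 0.026 (edgeR adjusted p = 1.06e-09). Endothelial markers were also lower in female WT for 9 of 10, and podocyte markers for 7 of 7. The podocyte sums were 305 to 320 CPM in female WT and 472 to 498 CPM in male WT. Leukocyte markers were higher in female WT for 5 of 7 tested. The part of these cells in the Notch4 difference and in the others was not tested. Notch2, Dll4 and Hey1 were not called, with log2 differences of -0.09 ± 0.039, 0.05 ± 0.065 and 0.23 ± 0.16. The Jag2 call was lost without any 1 of male WT libraries 2, 3 and 4 or female WT libraries 1 and 3 (0.32 to 0.37, adjusted p = 0.0651 to 0.0938), and Notch2 was called lower without male WT library 1 (-0.12, adjusted p = 0.0187) or female KO library 1 (-0.08, adjusted p = 0.0360). The contrast of the WT groups uses the same WT libraries as the contrasts of KO with WT, so its values are not independent of theirs.

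For the genes lower in both sexes, the transcripts with the most similar pattern were sought among 10373 genes by Pearson's r of log2 CPM over the 15 libraries, a description in which the libraries of a pool are not independent. For Notch3 these were Myo3b, a myosin of actin protrusions, at 0.988, Serpinf1, a secreted serpin, at 0.981, and Bhlhb9 at 0.975. Myo3b had log2 fold changes of -0.39 ± 0.046 in males and -0.89 ± 0.041 in females, and Serpinf1 of -0.97 ± 0.091 and -1.76 ± 0.066. For Dll4 they included Clu, or clusterin, a secreted chaperone known from injured tubules, at 0.960, and Slc44a2, a choline transporter, at 0.947. Clu had log2 fold changes of -0.16 ± 0.027 in males and -0.33 ± 0.025 in females, and Slc44a2 of -0.19 ± 0.033 and -0.43 ± 0.031. Among the members themselves, Notch3 had r = 0.69 with Dll4, 0.87 with Dll1 and -0.90 with Jag1.

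Of 54 other genes of the pathway in 7 lists, 48 were tested. In male KO 3 were higher and 6 lower, where 10.1% of all genes were called in each direction. In female KO 7 were higher and 6 lower, where 20.7% of all genes were called higher and 18.6% lower. The median over the 48 was -0.02 in males and 0.01 in females on the log2 scale, beside 0.00 over all genes. Maml3, Kat2a, Dtx3, Dtx3l and Dtx4 were called in both sexes, each in the same direction. Dtx4, a Deltex ubiquitin ligase that acts on Notch receptors in endosomes, rose from 75.2 ± 1.66 to 90.6 ± 1.38 CPM in males (a change of 0.27 ± 0.035, edgeR adjusted p = 4.61e-07) and from 58.4 ± 1.41 to 105 ± 2.36 CPM in females (0.84 ± 0.033, edgeR adjusted p = 3.75e-20). The rise was larger in females by 0.58 ± 0.049 (edgeR adjusted p = 1.62e-10). Its relative Dtx3 fell by 0.35 ± 0.074 in males (edgeR adjusted p = 0.00152) and by 0.35 ± 0.067 in females (edgeR adjusted p = 2.53e-04). Dtx3l had log2 fold changes of 0.17 ± 0.053 in males and 0.15 ± 0.050 in females (edgeR adjusted p = 0.0178 and 0.0169). The Dtx3l calls were lost without male KO library 2 or 3 in males (adjusted p = 0.106 and 0.0630), and in females without female WT library 2 or female KO library 3 or 4 (adjusted p = 0.102, 0.0882 and 0.0564) or with scaling by library totals alone (adjusted p = 0.0760). The list of receptor sorting and turnover, which holds these 3 genes, had 2 of 10 tested genes higher and 2 lower in male KO, and 2 higher and 1 lower in female KO.

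Heyl, of the list of other Hes and Hey targets and a gene known from vascular smooth muscle, fell in male KO from 29.7 ± 2.52 to 15.8 ± 1.31 CPM (a log2 change of -0.92 ± 0.075, edgeR adjusted p = 2.03e-11). In females it was at 13.5 ± 1.07 and 13.9 ± 0.998 CPM (0.04 ± 0.079, edgeR adjusted p = 0.709), and the changes differed by 0.96 ± 0.11 (edgeR adjusted p = 4.84e-08). As for Notch4, male WT stood alone above the other groups, and the endothelial, smooth muscle and fibroblast marker values given above moved with it in males. Their part in the Heyl result was not tested. Heyl was the 1 gene called in male KO among the 4 tested of its list, where 10.1% of all genes were called lower. Hes5, a target of Notch in neural cells, had no counts in any library.

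In the nuclear complex list, 1 of 12 tested genes was higher and 1 lower in male KO, and 4 were higher and 2 lower in female KO, beside the shares over all genes given above (10.1% in each direction in males, 20.7% and 18.6% in females). Rbpj, which brings the freed receptor domain to DNA, rose in females from 39.6 ± 1.10 to 43.9 ± 1.73 CPM (a log2 change of 0.15 ± 0.048, edgeR adjusted p = 0.0134), while its male value was 0.08 (edgeR adjusted p = 0.290). Maml3, a coactivator of the Mastermind family, fell by 0.29 ± 0.079 in males and by 0.28 ± 0.074 in females (edgeR adjusted p = 0.00696 and 0.00244). Kat2a, a histone acetyltransferase, rose by 0.12 ± 0.037 and 0.14 ± 0.034 (edgeR adjusted p = 0.0193 and 0.00121). Cir1, a corepressor that binds RBPJ, fell by 0.29 ± 0.098 in females (edgeR adjusted p = 0.0173). Several of these calls were lost when a single library was left out. The female Rbpj call was lost without female WT library 1 or female KO library 2 or 3 (adjusted p = 0.0505 to 0.0533) and with scaling by library totals alone (adjusted p = 0.0636), and that of Cir1 without female WT library 2 or 4 or female KO library 2 (adjusted p = 0.0572 to 0.118). In males the Maml3 call was lost without male KO library 2 (adjusted p = 0.106), and that of Kat2a without male WT library 3 or male KO library 1 or 2 (adjusted p = 0.0580 to 0.0708).

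Neurl3, of the list of ligand endocytosis and a ubiquitin ligase of the Neuralized family, rose in female KO from 1.18 ± 0.242 to 2.76 ± 0.349 CPM (a log2 change of 1.21 ± 0.18, edgeR adjusted p = 1.79e-06), the largest rise among the pathway genes tested. Its male value was 0.30 ± 0.21 (edgeR adjusted p = 0.338). The difference between the sexes was 0.90 ± 0.28 (edgeR adjusted p = 0.0210), or 0.79 without male KO library 2 (adjusted p = 0.0708) and 0.81 without female WT library 3 (adjusted p = 0.0530). Aph1c, a subunit of the gamma-secretase that cuts Notch, fell in female KO from 8.96 ± 0.388 to 5.09 ± 0.571 CPM (a log2 change of -0.80 ± 0.10, edgeR adjusted p = 6.44e-08), with a male value of 0.01 (edgeR adjusted p = 0.974). The changes differed by -0.81 ± 0.15 (edgeR adjusted p = 1.85e-04). Aph1c has the near-identical copy Aph1b, between which the counting could split reads, so the Aph1c value is uncertain. Aph1b was at 19.0 ± 1.61 CPM in female WT and 16.6 ± 0.949 CPM in female KO. That log2 change, -0.19 ± 0.078, was not called (edgeR adjusted p = 0.0552). The protease list had 1 of 10 tested genes lower in each sex. The list of glycosyltransferases that modify the receptors had 1 of 5 lower in each sex. Over all genes, 10.1% were called lower in males and 18.6% in females. Of the other ligands only Dlk1 could be tested, and it was not called in either sex.

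**Figure D5:**
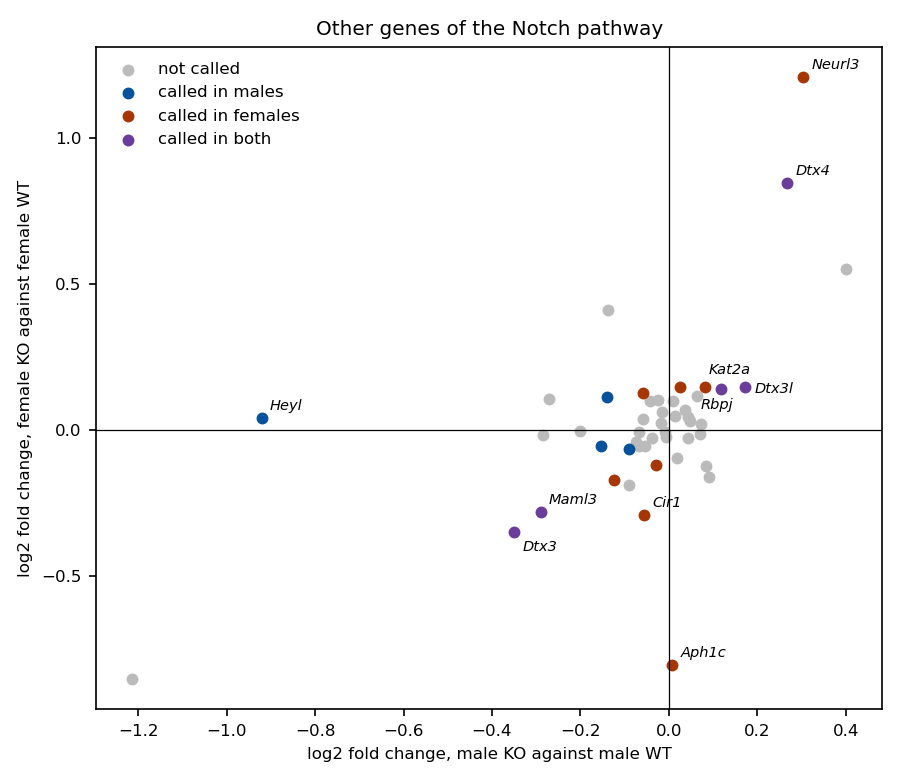
Log2 fold change of KO against WT in males (horizontal) and females (vertical) for the 48 other pathway genes tested, 1 point per gene, coloured by the sex in which it was called and labelled for the named genes. Dtx4 is at 0.27 and 0.84, Heyl at -0.92 and 0.04, and Neurl3 at 0.30 and 1.21.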

How the data were processed

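RNA-seq counts of 15 libraries in 4 groups were analysed. A table of raw counts by gene symbol and a table of CPM were deposited by the authors. The libraries were stranded mRNA libraries from RNA purified with Trizol and RNeasy columns, per the labels' protocols. Alignment to mm10 with STAR 2.6.1 and counting with featureCounts (no version given) are listed in the submitters' processing notes, beside limma 3.40.6 and edgeR 3.26.8. Neither the annotation nor the strand setting is given in the sources used here. The CPM that were deposited, equal to counts over the library total within 1e-06, served only as a check.

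Counts were fitted in R 4.3.3 with edgeR 4.0.16 (limma 3.58.1) in 1 robust quasi-likelihood model of the group means. The filter filterByExpr, set to a count of at least 10 and a total of at least 15, kept 13912 of 24421 genes, and 5184 had no count in any library. TMM factors were used. The biological coefficient of variation was 3.59%, here a measure of technical spread. Benjamini-Hochberg adjustment ran over all genes of each of 4 contrasts, and a standard error is the log2 fold change divided by the root of its F value. Exon lengths and positions are from GENCODE M21. No 2 libraries of a group agreed within sampling noise (chi-square per gene 1.53 to 8.20).

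The 10 genes and all lists were chosen with earlier results of these data known. All 10 are named. Of the other pathway genes, the 3 called genes with the largest fold change in each direction and sex are named, plus any called in opposite directions. Similar genes needed a mean of 5 CPM (prior count 2), and Gm and Rik names were left out. A gene that met this rule is not reported here. Alternatives were DESeq2 size factors, library totals alone, no filter, a filter of 5 CPM in 3 libraries, the DESeq2 1.42.0 Wald test, limma-voom, the compared groups alone, a block for the replicate number and the omission of each library in turn.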

Additional observations from a re-analysis of the deposited data

Results flagged for a closer look

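For 4 of the 10 genes and for 4 other genes of the pathway, the change in KO cells differed between the sexes in edgeR's test of the difference itself. The female minus male difference of the log2 fold change was -0.44 for Notch3 (edgeR adjusted p = 8.42e-07), 1.06 for Notch4 (edgeR adjusted p = 1.64e-05), 0.21 for Jag1 (edgeR adjusted p = 1.37e-04) and -0.39 for Dll1 (edgeR adjusted p = 1.18e-06). It was 0.58 for Dtx4 (edgeR adjusted p = 1.62e-10), 0.96 for Heyl (edgeR adjusted p = 4.84e-08), 0.90 for Neurl3 (edgeR adjusted p = 0.0210) and -0.81 for Aph1c (edgeR adjusted p = 1.85e-04). The difference for Neurl3 was no longer called without male KO library 2 (adjusted p = 0.0708) or without female WT library 3 (adjusted p = 0.0530).

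Each member and each pathway gene named by the rule was checked, in each group of 4 libraries, for 1 library far from the rest. Male KO, with 3 libraries, was not checked. Chance alone would mark about 1 in 20 such group levels. Of 60 checked, 2 were flagged, both in female WT library 3. Notch2 was at 243 CPM there, with the other 3 libraries between 249.7 and 251 CPM. Heyl was at 15.1 CPM there, with the others between 12.9 and 13.0 CPM.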

How the results depend on the processing

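Under 23 alternatives, 15 of which left out 1 library, none of the member results changed direction while called, and 32 of the 40 member results (10 genes in 4 contrasts) stayed on the same side of the threshold in every alternative that gave a value. Called KO effects ranged from -0.28 to -0.21 for Notch3, -0.88 to -0.68 for Notch4 and -0.51 to -0.40 for Dll4 in males. In females they ranged from -0.73 to -0.68 for Notch3, -0.70 to -0.63 for Dll4, -0.36 to -0.31 for Dll1, 0.18 to 0.23 for Jag1, 0.20 to 0.26 for Notch1 and 0.12 to 0.20 for Notch2. With scaling by library totals alone, 5 genes were lower in female KO in place of 3, adding Hes1 and Hey1. The 8 results that crossed the threshold were Notch1 and Hey1 in males, Notch4, Hes1 and Hey1 in females, Notch2 in the sex difference, and Notch2 and Jag2 between the WT groups, of which Jag2 alone lost a call (in 7 alternatives). The cause of these changes was not tested. Replicate numbers did not pair the libraries, since 21 correlations between same-numbered libraries of different groups were -0.0285 to 0.165. With a replicate block, 1 gene (Notch1, adjusted p = 0.0471) was higher in male KO in place of 0, and calls over all genes were 3092 in males and 5909 in females. Jag2 and Hey1 gave no value under the filter of 5 CPM. At 27 to 239 counts per library, the errors of Notch4, Jag2 and Hey1 limit what could be called. Without division by exon length, Notch2 held 66.7% to 72.3% of the receptor level and Jag1 90.1% to 93.2% of the ligand level.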

Other observations

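Other pathway genes that passed the test fall outside the rule for naming; they were picked out with their values in view. In male KO these were Pofut1, which adds the O-fucose that Notch receptors need to bind ligands (log2 fold change -0.14 ± 0.049), Ncstn, the gamma-secretase subunit nicastrin (-0.09 ± 0.029), and Numbl, a relative of the Notch inhibitor Numb (-0.15 ± 0.046), all lower. In female KO, Crebbp (0.15 ± 0.047), a histone acetyltransferase, was higher. Poglut1 (-0.12 ± 0.037), which adds O-glucose to the receptors, and Mib2 (-0.17 ± 0.043), a ubiquitin ligase of Notch ligands, were lower there. Among the genes named here, the change differed between the sexes for Pofut1 (by 0.25 ± 0.067, edgeR adjusted p = 0.00709).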
